A study of Mus musculus with 12 samples.

Results

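Described here are 39 mouse genes of the cell cycle, chosen by name for what they are known to do, from a list drawn up with earlier results of these data known. They comprise 13 genes of mitosis and the phases leading into it, 10 genes of DNA replication, 8 cyclins and kinases of G1 phase, 3 E2F transcription factors and 5 inhibitors of cyclin-dependent kinases (CDKs). They were found by gene symbol among the 55536 genes of an islet RNA-seq count table. All 39 were also among the 19800 genes with enough counts to be tested, and the lowest count of any of them in any library was 20. Gene positions are those of GENCODE M21 on GRCm38, where 22 of the 39 overlap no other annotated gene. Reads of the others, among them Ccna2 (with Exosc9), Cdc20 (with Elovl1), Cdk2 (with Pmel) and Cdk4 (with Tspan31), may be shared with the overlapping gene.

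In a dividing cell, D-type cyclins bind Cdk4 or Cdk6 and start the phosphorylation of the retinoblastoma family of pocket proteins, which frees E2F factors to switch on genes of DNA replication. Cyclins E and A with Cdk2 then carry the cell through S phase, and cyclin B with Cdk1, together with the Aurora and Polo kinases, through mitosis. Inhibitors such as p21 (Cdkn1a), p27 (Cdkn1b) and p16 (Cdkn2a) hold the kinases in check. Adult beta cells divide rarely, Ccnd2 and Cdk4 are known to be needed for the growth of the mouse beta cell mass, and p16 is known to accumulate in islets with age.

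Pancreatic islets, the hormone-secreting cell clusters of the pancreas, were taken from 16-week-old mice of a mixed C57BL/6J background, and total RNA of 12 libraries was sequenced. Controls carry the genotype label PTPN2 fl/fl (PTPN2 +/+ in the sample titles) and the other animals PTPN2 -/-, called Ptpn2-bKO in the protocol. Each genotype has 3 libraries from untreated islets and 3 from islets that spent 24 h with 3 inflammatory cytokines, IFN-gamma, IL-1beta and TNF alpha. The 6 libraries of a genotype came from 3 mice, so some share a mouse, and which ones is not given. The p-values therefore measure only the spread between these libraries. Neither the promoter that drives the deletion nor whether the controls carry it is named in the labels. Library totals ran from 47064061 to 107515565 counts. Levels are given as CPM, that is counts scaled to the library's TMM-adjusted total, and a gene is called higher or lower where its adjusted p was under 0.05 in edgeR's quasi-likelihood test with Benjamini-Hochberg adjustment over all genes tested. In bulk RNA, fewer cells of a type and less RNA per cell cannot be told apart.

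Ptpn2 itself, the gene named in the labels, was not lower in the libraries labelled bKO. Its level was 31.0 ± 0.63 CPM (SD, n = 3) in untreated controls and 35.3 ± 1.5 CPM in untreated bKO-labelled islets, a log2 difference of 0.19 (95% interval -0.03 to 0.40, adjusted p = 0.989). With cytokines the difference was 0.23 (95% interval 0.02 to 0.44, adjusted p = 0.26). A count over the whole gene does not test the loss of an exon, so the genotype is written as a label throughout. Beta cell markers (Ins1, Ins2 and the rest of a list of 9) summed to 124376 to 136722 CPM in the untreated libraries, as the islet label asks.

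A single library stands furthest apart for these genes. The main counts and a part of the gene values are therefore given with and without it. Other values in bKO-labelled islets are given with all libraries and include it. The library was singled out by the levels of these same genes. Counts, adjusted p and likeness between genotypes without it depend on that choice and are no separate support. Replicate 2 of the cytokine-treated bKO-labelled islets had the highest level of its group for 35 of the 39 genes. Its median ratio over the mean of its 2 partner libraries was log2 1.04 for these genes and -0.00 for all genes tested, and 21 of the 39 lay over 2-fold above the partners, against 8.63% of all genes tested. For 17 genes it was above all 11 other libraries. The 13 mitosis genes summed to 111 CPM there and to 28.8 and 36.1 CPM in the partners, whereas treated control libraries held 25.5 to 40.1 CPM and untreated bKO-labelled libraries 97.9 to 110 CPM. Its cell type markers also differed. Stellate or fibroblast markers (10 genes, Col1a1, Pdgfrb and others) summed to 8387 CPM against 3201 and 3381 CPM in the partners, with all 10 higher and 7 over 2-fold. Ductal markers (8 genes, Spp1, Krt19 and Sox9 among them) summed to 6955 CPM against 2486 and 3436 CPM, with 7 of 8 higher and 3 over 2-fold. Spp1 alone made up 5128 CPM of the sum in replicate 2. The 9 beta cell markers were all lower, at 90048 CPM against 147579 and 162413 CPM, and the 10 acinar markers summed to 782 CPM against 1357 and 2990 CPM. Endothelial markers, at 213 CPM, and macrophage markers, at 502 CPM, were within the range of the partners. The part of this cell makeup in the level of the cell cycle genes was not tested.

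**Figure D1:**
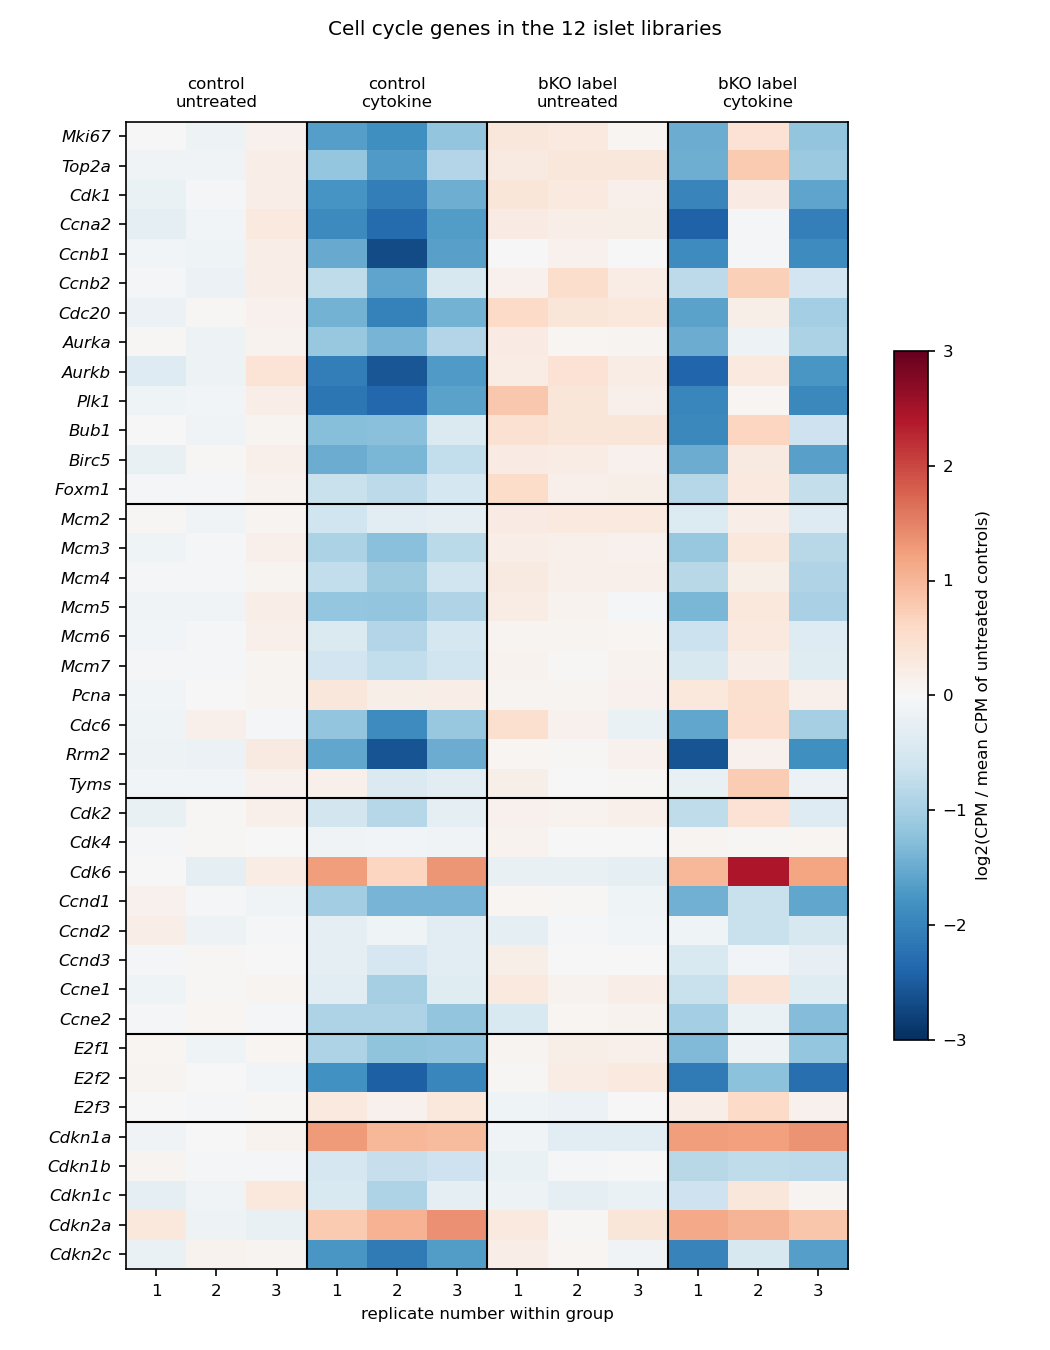
Level of each of the 39 genes (rows, grouped by role with lines between groups) in each of the 12 libraries (columns, by group and replicate), as log2 of its CPM over the mean CPM of the 3 untreated control libraries. Most rows of mitosis and replication genes are blue in 5 of the 6 treated libraries and near white or red in treated bKO-labelled replicate 2, while Cdk6, Cdkn1a and Cdkn2a are red in all 6 treated libraries.

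Cytokines lowered most cell cycle genes in control islets, 26 of the 39, and raised 4, leaving 9 not called. The genes that rose were Cdk6, Pcna, Cdkn1a and Cdkn2a. Over all genes tested, 33.9% were lower and 26.8% higher in this comparison (60.6% called in all). The median log2 difference of the 39 genes was -0.94, against -0.10 for all genes tested. The treated and untreated control libraries did not overlap for 37 of the 39 genes, against 70.5% of all genes tested. Of the 30 calls, 19 lower and 3 higher ones held in each of the 12 fits that left out 1 library.

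In the bKO-labelled islets 13 of the same 39 genes were lower with cytokines and 5 higher, with a median of -0.56 (all genes: 33.6% lower, 28.8% higher, 62.4% called). Without treated bKO-labelled replicate 2 the counts became 30 lower and 5 higher, with a median of -1.03 (all genes: 32.3% lower, 30.0% higher, 62.3% called). The fit shares its estimate of spread over all libraries, and without that library 30 genes were lower and 5 higher in control islets too (all genes: 33.4% lower, 31.5% higher, 64.9% called). The same 30 genes were then lower and the same 5 higher in both genotypes. The other treated bKO-labelled libraries moved the count as well, to 8 lower without replicate 1 and 7 lower without replicate 3, fits in which replicate 2 is 1 of 2 treated libraries. Groups did not overlap for 17 of the 39 genes with all libraries, against 65.0% of all genes tested.

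**Figure D2:**
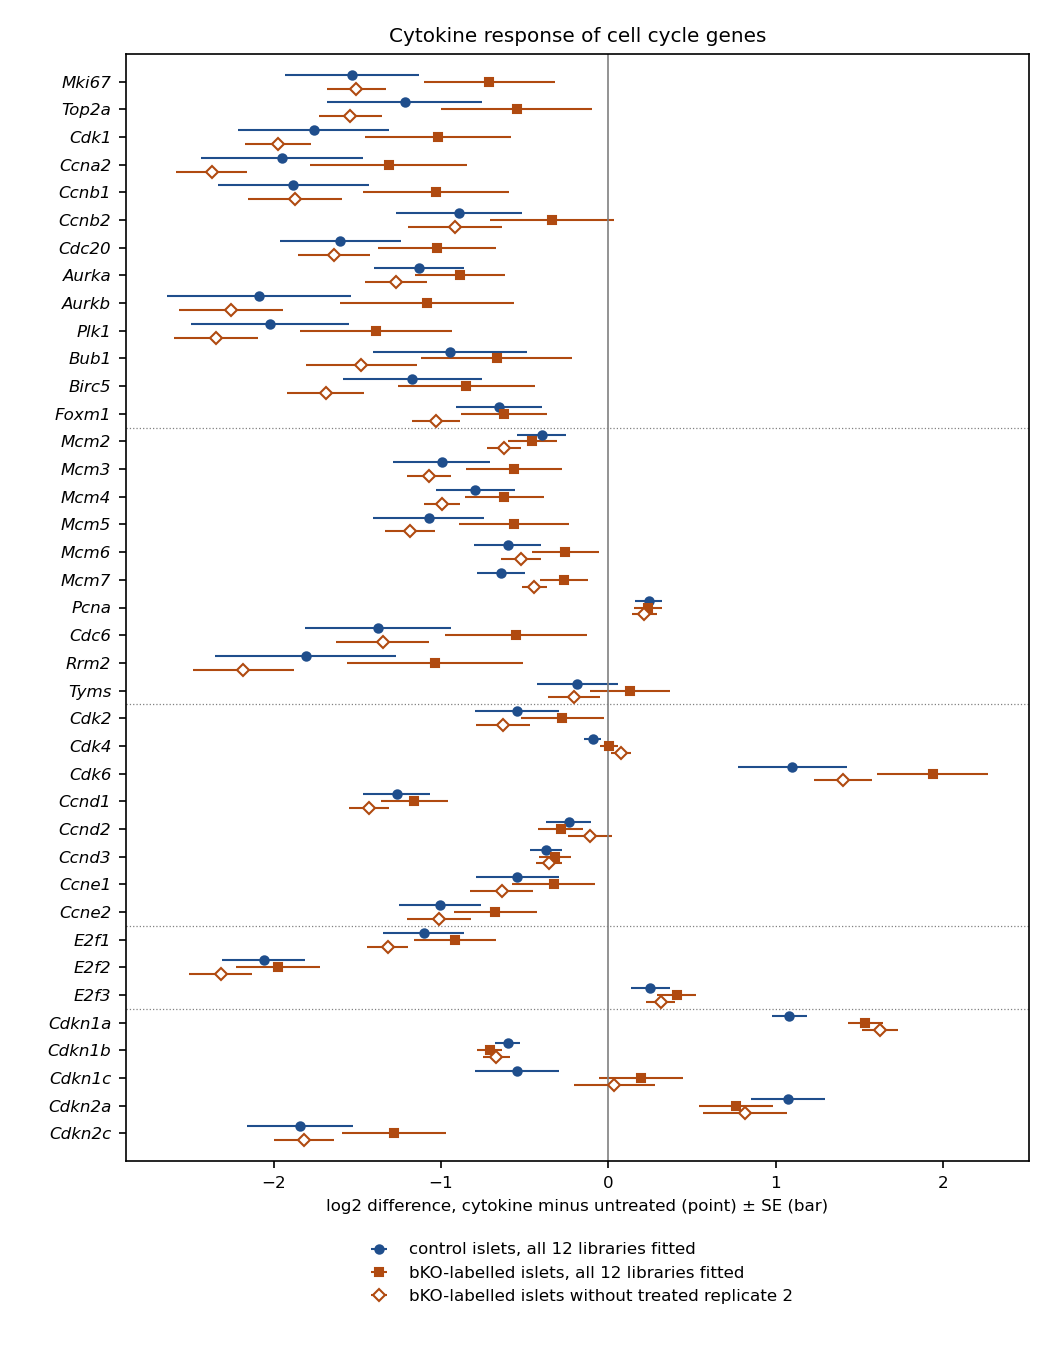
Log2 difference between cytokine-treated and untreated islets (point) with its standard error (bar) for the 39 genes, in control islets (circles), bKO-labelled islets (squares) and bKO-labelled islets without treated replicate 2 (open diamonds). For the mitosis and replication genes the squares lie closer to 0 than the circles except for Mcm2, and the diamonds lie near the circles or below them.

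Most mitosis genes fell in control islets. In control islets 11 of the 13 were called lower and none higher (all genes: 33.9% lower, 26.8% higher). Their log2 differences ran from -2.09 to -0.65, with a median of -1.53 over the 13. Mki67 (chr7:135689784-135716361, minus strand), whose protein Ki-67 coats mitotic chromosomes and is the usual marker of cycling cells, was at 17.9, 16.3 and 19.9 CPM in untreated control islets and at 5.75, 5.06 and 7.98 CPM with cytokines. In bKO-labelled islets it was at 23.0, 22.3 and 18.7 CPM untreated and at 6.42, 24.5 and 7.98 CPM treated. Every treated library except bKO-labelled replicate 2 was thus below every untreated one. The log2 difference was -1.53 (SE 0.40, adjusted p = 0.00619) in controls. In bKO-labelled islets it was -0.71 (SE 0.39, adjusted p = 0.134), and -1.51 (SE 0.18, adjusted p = 1.44e-05) without replicate 2.

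Cdk1 (chr10:69335146-69352938, minus strand), the kinase that drives entry into mitosis, was at 5.12, 5.73 and 6.68 CPM in untreated controls and at 1.72, 1.38 and 2.11 CPM in treated ones. Its bKO-labelled libraries held 7.48, 7.16 and 6.47 CPM untreated and 1.48, 6.90 and 1.94 CPM treated. The control groups were far apart, and in the bKO-labelled islets replicate 2 again lay among the untreated libraries. Cdk1 fell by 1.76 on the log2 scale in controls (SE 0.45, adjusted p = 0.00542). The bKO-labelled value was -1.02 (SE 0.44, adjusted p = 0.0614) with all libraries and -1.98 (SE 0.20, adjusted p = 4.06e-06) without replicate 2. Its cyclin partners followed the same order. Ccna2 (cyclin A2, of S and G2 phase) fell by 1.95 in controls and Ccnb1 (cyclin B1) fell by 1.88, from 3.79, 3.64 and 4.55 CPM to 1.39, 0.619 and 1.28 CPM.

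Aurkb and Plk1 had the largest falls of the mitosis genes in controls. Aurkb, the kinase of the chromosomal passenger complex, was at 2.24, 2.63 and 3.88 CPM in untreated controls and at 0.696, 0.495 and 0.902 CPM with cytokines, and fell by 2.09 (SE 0.55, adjusted p = 0.00617). Its bKO-labelled libraries held 3.39, 3.97 and 3.40 CPM untreated and 0.564, 3.56 and 0.871 CPM treated, a log2 difference of -1.08 (adjusted p = 0.0881), or -2.26 (adjusted p = 5.7e-05) without replicate 2. Plk1, the Polo kinase of centrosomes and spindle, went from 4.88, 5.04 and 6.13 CPM to 1.19, 1.04 and 1.76 CPM in controls, a fall of 4.06-fold (adjusted p = 0.00301). In bKO-labelled islets Plk1 was called lower with all libraries, at -1.39 (adjusted p = 0.0189), with treated values of 1.39, 5.59 and 1.41 CPM against 9.36, 6.94 and 5.94 CPM untreated. Aurka, the centrosomal Aurora kinase, fell in both genotypes, by 1.13 in controls and by 0.89 in bKO-labelled islets (adjusted p = 0.00343 and 0.0131). It was the only mitosis gene called lower in bKO-labelled islets in each of the 12 fits that left out 1 library.

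Among the remaining mitosis genes, Cdc20, which activates the anaphase-promoting complex, fell 3.04-fold in controls and 2.03-fold in bKO-labelled islets. Top2a (the DNA topoisomerase that untangles chromosomes, -1.22), Birc5 (survivin, -1.17) and Foxm1 (a transcription factor for G2 and mitosis genes, -0.65) were called lower in controls and not in bKO-labelled islets (-0.55, -0.85 and -0.62), and the difference between the genotypes' responses was not called (adjusted p = 0.695, 0.838 and 0.978). Those were also the least secure of the control calls. Top2a lost its call without any of the untreated libraries of either genotype or treated control replicates 1 or 2 (adjusted p = 0.0514 to 0.123). Foxm1 lost it without any control library or untreated bKO-labelled replicates 2 or 3 (adjusted p = 0.0544 to 0.118). Birc5 lost it without untreated control replicates 2 or 3 or treated control replicates 1 or 2 (adjusted p = 0.0618 to 0.0916). Ccnb2 (cyclin B2, -0.89, adjusted p = 0.0596) and Bub1 (a spindle checkpoint kinase, -0.94, adjusted p = 0.0954) were not called in controls, although the treated and untreated libraries did not overlap for either.

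In bKO-labelled islets 4 of the 13 mitosis genes were called lower with all libraries, namely Ccna2 (-1.31), Cdc20, Aurka and Plk1. Over all genes 33.6% were lower there, so this count by itself is near the background. Ccna2, Cdc20 and Plk1 lost that call without treated replicate 1 or 3 or without untreated replicate 1 (adjusted p = 0.0567 to 0.0969 over all fits that lost it), and Ccna2 also without untreated replicates 2 or 3. Without treated replicate 2, all 13 mitosis genes were called lower in both genotypes (all genes: 33.4% lower in controls, 32.3% in bKO-labelled islets). Medians without that library were -1.47 in controls and -1.64 in bKO-labelled islets. All 13 were over 2-fold higher in that library than in its partners.

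Most genes of DNA replication fell too. In controls 8 of the 10 were lower and 1 higher, with a median of -0.72 (all genes: 33.9% lower, 26.8% higher). The Mcm2 to Mcm7 proteins form the ring-shaped helicase that opens DNA at replication origins, and all 6 of their genes fell in controls, by 0.40 (Mcm2), 1.00 (Mcm3), 0.79 (Mcm4), 1.07 (Mcm5), 0.60 (Mcm6) and 0.64 (Mcm7). Mcm5 was at 15.2, 15.2 and 18.6 CPM in untreated controls and at 7.36, 7.17 and 8.82 CPM in treated ones, without overlap (SE 0.33, adjusted p = 0.0149). The untreated bKO-labelled libraries held 19.0, 17.6 and 15.6 CPM and the treated ones 6.28, 20.5 and 8.40 CPM, of which replicate 2 was the highest of all 12 libraries. The log2 difference of Mcm5 there was -0.56 (adjusted p = 0.154), and -1.18 (adjusted p = 2.73e-05) without replicate 2. Reads of Mcm7 are less certain, since its annotated span overlaps Cops6, Ap4m1 and 3 miRNA genes and the labels do not say whether counting used strand.

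Rrm2, the regulated subunit of ribonucleotide reductase that supplies deoxynucleotides, changed the most of this group. Its control libraries went from 13.5, 13.2 and 18.1 CPM to 5.06, 2.48 and 5.35 CPM, a fall of 3.50-fold (adjusted p = 0.0128). In bKO-labelled islets the values were 15.6, 15.4 and 16.3 CPM untreated and 2.49, 16.2 and 4.16 CPM treated, where replicate 2 matched the untreated libraries. Cdc6, which loads the helicase, fell by 1.38 in controls (adjusted p = 0.0169). Both calls were lost without treated control replicate 2, at adjusted p = 0.0509 for Rrm2 and 0.0679 for Cdc6. The Mcm6 call was lost without untreated control replicate 3 or treated control replicate 2 (adjusted p = 0.0708 to 0.0842). The Mcm2 call was lost without untreated control replicates 1 or 3 or treated control replicate 1 (adjusted p = 0.0783 to 0.123).

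Pcna, the sliding clamp of DNA polymerases that also serves in DNA repair and is a known p53 target, went the other way. It was at 42.9, 45.1 and 47.4 CPM in untreated controls and at 56.8, 51.4 and 52.0 CPM in treated ones, and at 47.5, 47.6 and 49.2 CPM untreated and 56.5, 63.0 and 50.5 CPM treated in bKO-labelled islets. All 6 treated libraries were above all 6 untreated ones. The rise was small, at log2 0.24 in both genotypes (adjusted p = 0.0236 in controls and 0.0249 in bKO-labelled islets). It depended on the scaling: with library totals alone it was 0.01 in both genotypes, and without treated bKO-labelled replicate 2 it was then -0.10 in bKO-labelled islets. Its call was lost in controls without untreated replicates 1 or 2 or treated replicate 1 (adjusted p = 0.0613 to 0.0899), and in bKO-labelled islets without untreated replicates 1 or 2 (adjusted p = 0.0669 to 0.0722). Tyms, thymidylate synthase, was not called in either genotype, at -0.19 (95% interval -0.71 to 0.34) in controls and 0.13 (95% interval -0.40 to 0.66) in bKO-labelled islets, where replicate 2 held 14.8 CPM against 7.53 and 7.78 CPM in its partners.

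With all libraries, the bKO-labelled islets had 2 of the 10 replication genes lower, Mcm2 (-0.45) and Mcm4 (-0.62), and Pcna higher (all genes: 33.6% lower, 28.8% higher). Both lower calls were lost without treated replicate 1 or 3, and that of Mcm4 also without any of the 3 untreated bKO-labelled libraries (adjusted p = 0.0646 to 0.131 for Mcm4, 0.0693 to 0.0733 for Mcm2). Without treated replicate 2 the counts were 8 lower and 1 higher in both genotypes (all genes: 33.4% lower in controls, 32.3% in bKO-labelled islets). Medians of the replication genes were then -0.65 in controls and -0.81 in bKO-labelled islets.

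Genes that peak in mitosis and genes that peak in S phase are known to differ in their promoters, the former carrying a CHR element with CCAAT boxes and the latter E2F sites, and since these genes moved together their promoters were compared. RefSeq promoter windows, from 250 bases before to 50 bases after the start site in GRCm38.p6, were found for 31 of the 39 genes by symbol. Each window was searched on both strands for the CHR letters TTTGAA and their variant form TTCGAA, for the CCAAT box and for the E2F letters TTTGGCGC, TTTCCCGC, TTTCGCGC and TTTGCCGC. Matches to the E2F letters can overlap one another. CHR and CCAAT letters were both present in 8 of the 10 mitosis genes with a window (80.0%), against 9.65% of the 27025 genes in the table. Both were also in 2 of the 9 replication genes (22.2%) and 2 of 3 E2F factors (66.7%). CCAAT letters, with or without CHR letters, were not particular to mitosis genes. They were in 9 of the 10 mitosis genes (90.0%), 7 of the 9 replication genes (77.8%) and 3 of 4 inhibitors (75.0%). Shares were 2 of 5 G1 genes (40.0%) and 2 of 3 E2F factors, against 41.1% of all genes. E2F letters were in 1 of the 10 mitosis genes, Cdk1, and in 5 of the 9 replication genes (55.6%), against 2.6% of all genes. CHR letters, with or without CCAAT letters, were in 2 of the 9 replication genes (22.2%), 0 of 5 G1 genes, 2 of 3 E2F factors and 0 of 4 inhibitors. Over all genes the share was 21.7%, and groups of 4 or 5 are too small to set 0 apart from it. Such matches describe the letters and do not show that a factor binds there.

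The stretches shown are the 200 bases before the RefSeq start site, 5′ to 3′ on the strand of the gene, for 3 mitosis genes with CHR and CCAAT letters and 2 replication genes with E2F letters. Capitals mark CHR, CCAAT (or ATTGG on the other strand) and E2F matches. They lie on the minus strand for Mki67 (chr7:135716380-135716579), Cdk1 (chr10:69352913-69353112), Cdc20 (chr4:118437344-118437543) and Mcm6 (chr1:128359706-128359905), and on the plus strand for Mcm5 (chr8:75109309-75109508).
Mki67: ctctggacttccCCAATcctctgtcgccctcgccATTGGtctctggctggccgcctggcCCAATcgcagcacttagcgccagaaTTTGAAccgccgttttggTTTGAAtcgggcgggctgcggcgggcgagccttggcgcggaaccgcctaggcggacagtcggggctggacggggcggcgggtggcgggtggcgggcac
Cdk1: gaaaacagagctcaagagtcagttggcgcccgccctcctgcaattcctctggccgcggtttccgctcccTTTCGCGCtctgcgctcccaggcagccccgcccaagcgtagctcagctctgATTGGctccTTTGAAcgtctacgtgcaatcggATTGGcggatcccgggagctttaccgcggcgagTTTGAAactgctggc
Cdc20: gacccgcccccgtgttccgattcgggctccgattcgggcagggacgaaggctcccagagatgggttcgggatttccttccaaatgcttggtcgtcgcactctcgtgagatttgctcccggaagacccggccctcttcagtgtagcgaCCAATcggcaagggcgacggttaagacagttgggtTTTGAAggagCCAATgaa
Mcm5: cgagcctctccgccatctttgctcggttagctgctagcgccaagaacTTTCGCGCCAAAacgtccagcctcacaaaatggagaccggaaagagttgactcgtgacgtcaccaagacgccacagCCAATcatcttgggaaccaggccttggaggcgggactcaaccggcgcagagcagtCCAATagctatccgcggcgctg
Mcm6: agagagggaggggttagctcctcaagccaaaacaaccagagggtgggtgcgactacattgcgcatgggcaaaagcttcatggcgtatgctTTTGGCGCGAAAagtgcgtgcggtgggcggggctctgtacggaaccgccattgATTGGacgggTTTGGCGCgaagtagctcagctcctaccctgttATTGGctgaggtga

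In Cdk1 the CHR letters begin 71 and 15 bases before the start, with CCAAT-box letters beginning 80 and 48 bases before it. In Mcm5 and Mcm6 matches on the 2 strands overlap, at 153 and 149 bases before the start in Mcm5 and at 110 and 106 bases in Mcm6. Of the 2 mitosis genes with a window but without the CHR letters searched, Ccnb1 fell by 1.88 and Birc5 by 1.17 in controls. Other forms of the element were not searched. Any relation of the letters to the size of the fall was not tested.

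The G1 cyclins and kinases split. In controls 3 of the 8 were lower, 1 was higher and 4 were not called, and the same counts held in bKO-labelled islets. Over all genes 33.9% were lower and 26.8% higher in controls, and 33.6% and 28.8% in bKO-labelled islets. The counts of lower genes by themselves are thus near the background. Ccnd1 (cyclin D1, chr7:144929931-144939925, minus strand), a growth-factor-responsive partner of Cdk4 and Cdk6, fell in both. It was at 159, 141 and 134 CPM in untreated controls and at 70.3, 54.8 and 55.3 CPM in treated ones. The bKO-labelled libraries held 151, 147 and 132 CPM untreated and 52.96, 90.6 and 48.9 CPM treated. No treated library reached any untreated one, including replicate 2. Ccnd1 fell 2.40-fold in controls (SE 0.20 on the log2 scale, adjusted p = 0.000199) and 2.23-fold in bKO-labelled islets (SE 0.20, adjusted p = 0.000356), or by log2 1.43 there without replicate 2. Ccnd3 (cyclin D3) fell by 0.37 and 0.32 in the respective genotypes, and Ccne2 (cyclin E2) by 1.01 and 0.68. The bKO-labelled call for Ccne2 was lost without treated replicates 1 or 3 or untreated replicates 2 or 3 (adjusted p = 0.0895 to 0.115).

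The cyclin and kinase with the highest levels in these islets were not called. Ccnd2 (cyclin D2) had the highest level per exon length of the 39 genes in untreated controls, 57.4 ± 7.4 CPM per kb (SD, n = 3), followed by Cdk4 at 37.0 ± 0.75, Ccnd1 at 30.7 ± 2.7 and Cdkn1a at 29.1 ± 2.2 CPM per kb. The last 2 did not differ beyond their spread. At the other end Cdkn2a (0.512 ± 0.11), Cdc6 (0.504 ± 0.054) and Bub1 (0.413 ± 0.027 CPM per kb) were the lowest, and the first 2 of these did not differ beyond their spread. Cdk4 was at 118, 123 and 121 CPM in untreated controls and at 112, 115 and 112 CPM with cytokines, a log2 difference of -0.09 (95% interval -0.21 to 0.02). In bKO-labelled islets it was at 129, 122 and 122 CPM untreated and 127, 123 and 125 CPM treated, a difference of 0.00 (95% interval -0.11 to 0.12). Scaling by library totals alone made it -0.32 and -0.23, both called, so this direction depends on the scaling. Ccnd2 was not called, at -0.24 (95% interval -0.53 to 0.06) in controls and -0.28 (95% interval -0.58 to 0.01) in bKO-labelled islets. It was called lower in bKO-labelled islets, at -0.44 (adjusted p = 0.00908), without treated replicate 1.

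Cdk6, the second partner of the D cyclins, rose. Its control libraries went from 11.4, 9.55 and 13.3 CPM to 27.2, 17.8 and 28.7 CPM, and its bKO-labelled ones from 9.79, 9.81 and 9.33 CPM to 22.9, 61.8 and 26.1 CPM. Every treated library was above every untreated one, and replicate 2 of the treated bKO-labelled islets was more than 2-fold above all others. The log2 rise was 1.10 in controls (SE 0.32, adjusted p = 0.0117). In bKO-labelled islets it was 1.94 (SE 0.33, adjusted p = 0.000346), and 1.40 (SE 0.17, adjusted p = 2.13e-05) without that library. Cdk2, the S phase kinase, and Ccne1, cyclin E1, were not called in controls (-0.54 each, adjusted p = 0.0786 and 0.0789) or in bKO-labelled islets (-0.27 and -0.33). Both were called lower in both genotypes without replicate 2, which brought the group to 5 lower and 1 higher in each. Over all genes 33.4% were then lower in controls and 32.3% in bKO-labelled islets.

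**Figure D3:**
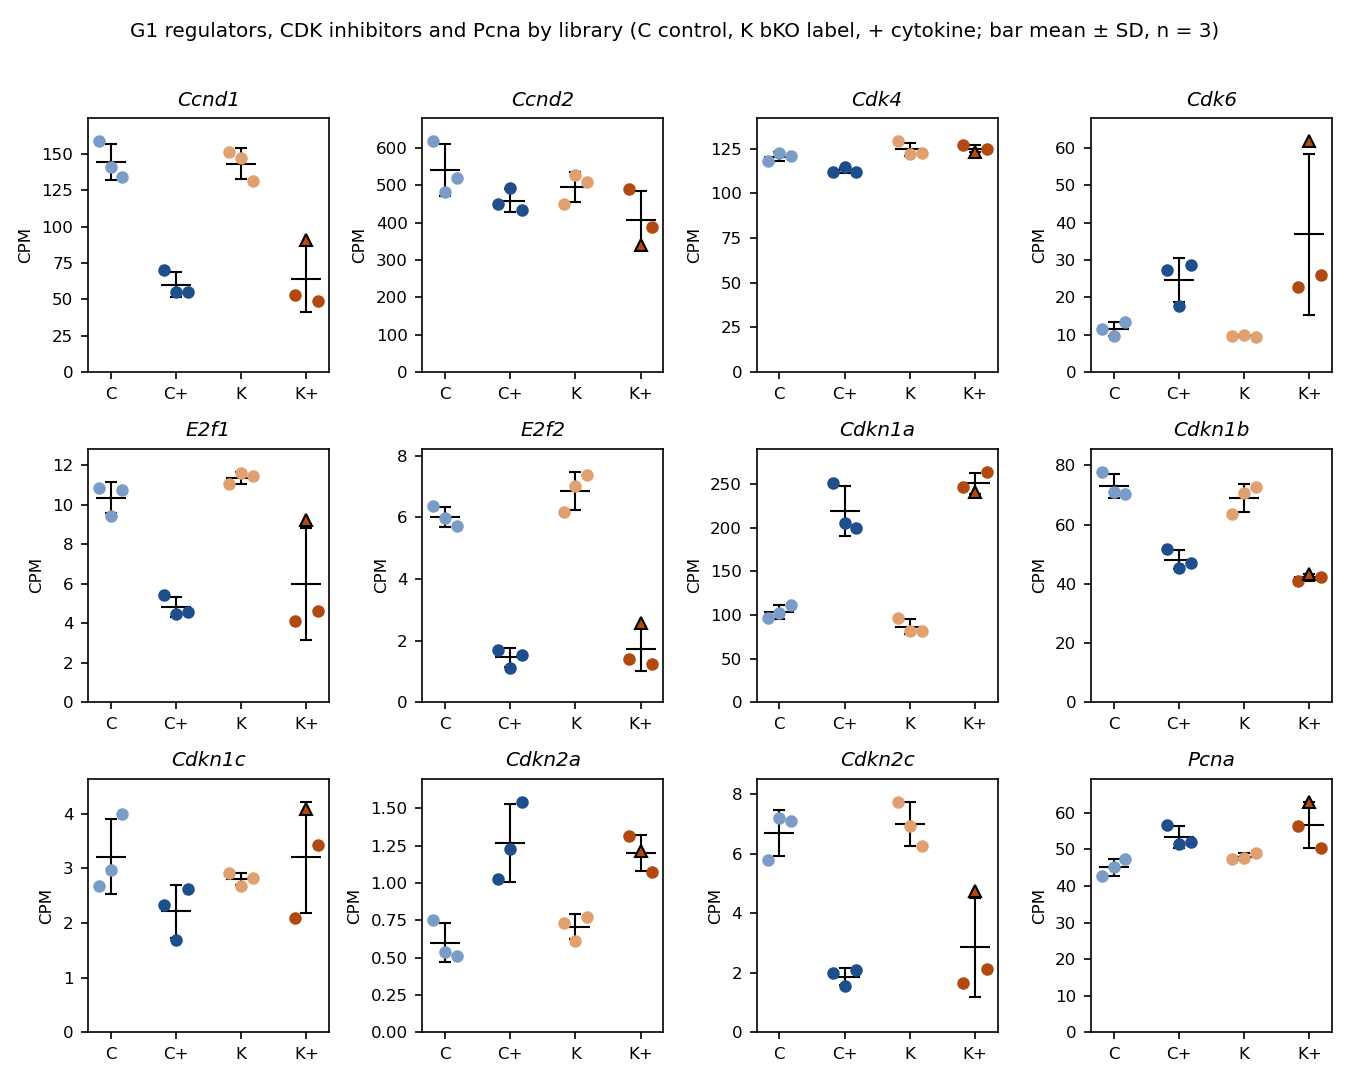
CPM (vertical axes, from 0) of 12 genes in each library: C control, C+ control with cytokines, K bKO-labelled, K+ bKO-labelled with cytokines, with the mean and SD of 3 libraries as bars and treated bKO-labelled replicate 2 as a triangle. The triangle is the highest point for Cdk6, Pcna and, narrowly, Cdkn1c. It lies between the groups for Ccnd1 and Cdkn2c, and with its partners for Cdk4, Cdkn1a, Cdkn1b and Cdkn2a.

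Of the E2F factors, the activators of S phase genes, E2f1 and E2f2 fell in both genotypes. E2f2 was at 6.37, 5.97 and 5.73 CPM in untreated controls and at 1.71, 1.10 and 1.54 CPM with cytokines, a fall of 2.06 (SE 0.25, adjusted p = 2.76e-05). In bKO-labelled islets it went from 6.16, 7.03 and 7.38 CPM to 1.39, 2.56 and 1.25 CPM, a fall of 1.97 (SE 0.25, adjusted p = 3.54e-05). In treated replicate 2 E2f2 was below every untreated library. E2f1 fell by 1.10 and by 0.92 (adjusted p = 0.0021 and 0.0062). E2f3 was at 0.25 in controls (adjusted p = 0.0821, not called) and rose by 0.41 in bKO-labelled islets (adjusted p = 0.0098). It was called in both without replicate 2, at 0.32 and 0.31, and with library totals alone the values were 0.02 and 0.18, neither called.

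Of the 5 CDK inhibitors 2 were higher and 2 lower in both genotypes. Over all genes 26.8% were higher and 33.9% lower in controls, and 28.8% and 33.6% in bKO-labelled islets, so these counts by themselves are near the background. Cdkn1a (chr17:29090976-29100727, plus strand), which encodes p21, an inhibitor of Cdk2 and Cdk1 complexes induced by p53 and by stress, rose most clearly. It was at 96.4, 102 and 112 CPM in untreated controls and at 252, 205 and 200 CPM with cytokines, a log2 rise of 1.08 (SE 0.10, adjusted p = 4.14e-06). Its bKO-labelled libraries held 96.5, 82.1 and 81.2 CPM untreated and 247, 242 and 264 CPM treated, a rise of 1.54 (SE 0.11, adjusted p = 2.62e-07). The groups were well separated, and the library that stood apart for the mitosis genes was level with its partners here. Cdkn2a also rose, by 1.07 in controls and by 0.77 in bKO-labelled islets (adjusted p = 0.00131 and 0.0102), at a low level of 0.513 to 0.773 CPM in the untreated and 1.03 to 1.54 CPM in the treated libraries. With library totals alone the bKO-labelled rise was 0.54 (adjusted p = 0.0518). A count per gene cannot separate its p16 and p19Arf transcripts.

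Cdkn1b, which encodes p27, the inhibitor linked to the resting state of beta cells, fell. Its control libraries went from 77.9, 71.0 and 70.3 CPM to 51.8, 45.5 and 47.2 CPM, and its bKO-labelled ones from 63.5, 70.8 and 72.6 CPM to 40.9, 43.3 and 42.4 CPM. Treated and untreated libraries did not overlap. The falls were 0.60 (SE 0.075, adjusted p = 3.3e-05) and 0.71 (SE 0.075, adjusted p = 8.55e-06). Cdkn2c, which encodes p18, an inhibitor of Cdk4 and Cdk6, fell by 1.84 in controls, from 5.79, 7.19 and 7.10 CPM to 1.99, 1.55 and 2.09 CPM (adjusted p = 0.000364). In bKO-labelled islets it fell by 1.28 (adjusted p = 0.00362), from 7.74, 6.94 and 6.27 CPM to 1.67, 4.76 and 2.12 CPM, and by 1.82 without replicate 2. Cdkn1c (p57) was not called, at -0.54 in controls (95% interval -1.09 to 0.00) and 0.20 in bKO-labelled islets (95% interval -0.35 to 0.74). In the latter, treated replicate 2 held 4.09 CPM against 2.09 and 3.42 CPM in its partners.

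Between genotypes no cell cycle gene was called. In untreated islets 31 of the 39 were nominally higher in the bKO-labelled libraries, including all 13 mitosis and all 10 replication genes, with log2 differences from -0.25 to 0.47 and a median of 0.13. Over all genes tested 47.6% were higher in sign and 0.0758% were called (0.291% without replicate 2 of the treated bKO-labelled islets). Acinar markers differed in this comparison without overlap, summing to 4689 to 7605 CPM in untreated controls and 2118 to 3473 CPM in untreated bKO-labelled islets, and their part in these values was not tested. Only Cdkn1a had an unadjusted p under 0.05, at -0.25 (95% interval -0.48 to -0.03, adjusted p = 0.788), against 5.55% of all genes tested. Mki67 stood at 23.0, 22.3 and 18.7 CPM against 17.9, 16.3 and 19.9 CPM in controls, ranges that overlap. The untreated libraries did not overlap for 9 of the 39 genes, against 16.2% of all genes tested, among them Mcm2 at 25.2, 26.0 and 25.9 CPM against 21.6, 19.7 and 22.3 CPM (log2 0.28, 95% interval -0.04 to 0.60, adjusted p = 0.994). DESeq2 also called none of the 39 in this comparison, with 1 at an unadjusted p under 0.05, and called 92 higher and 34 lower among the 34755 genes it tested.

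With cytokines 36 of the 39 genes were nominally higher in the bKO-labelled islets and none was called (adjusted p from 0.165), against 0.232% of all genes. Over all genes 50.8% were higher in sign. The median of the 39 was 0.42, and 10 of them had an unadjusted p under 0.05 in edgeR, against 17.8% of all genes. DESeq2 gave 15 at that level and called none of the 39, while it called 275 higher and 399 lower among the 34755 genes it tested. This rested on replicate 2: without it the median was -0.02 and none of the 39 was called, against 0.340% of all genes. Mki67 was 1.06 higher with it (95% interval 0.18 to 1.94, adjusted p = 0.222) and 0.20 higher without it (95% interval -0.18 to 0.58, adjusted p = 0.701). For Cdk1 the difference was 1.01 with and -0.02 without it (95% interval -0.45 to 0.42). Treated control replicate 2 also deviated, though less, by a median log2 of -0.40 from its partners over the 39 genes. Without that control library the median between genotypes was 0.30. Without treated bKO-labelled replicate 1, which leaves replicate 2 of that group as 1 of 2, Mcm7 was called higher (0.59, adjusted p = 0.0497). That fit called 191 higher and 253 lower among the 20346 genes tested. The treated groups did not overlap for 3 genes, against 17.7% of all genes. These were Mcm7 (0.46, adjusted p = 0.165), Cdk4 (0.15, adjusted p = 0.199) and Cdkn1b (-0.19, adjusted p = 0.236). The last 2 had nearly the same values without treated bKO-labelled replicate 2, at 0.14 and -0.22.

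The cytokine responses of the genotypes were compared directly, as the difference between them, and no gene of the 39 was called, nor any of the 19800 (0%). DESeq2 also called none of the 39, with 2 at an unadjusted p under 0.05, but called 96 higher and 85 lower among the 34755 genes it tested. The median difference was 0.33 (bKO-labelled minus control), and -0.14 without replicate 2. The only gene with an unadjusted p under 0.05 in edgeR was Cdkn1a, whose rise was 0.45 larger in bKO-labelled islets (95% interval 0.14 to 0.77, adjusted p = 0.363), and 0.47 larger without replicate 2 (95% interval 0.15 to 0.79, adjusted p = 0.331). Its 3 untreated bKO-labelled libraries held 81.2 to 96.5 CPM and the controls 96.4 to 112 CPM, whereas the treated ones held 242 to 264 CPM and 200 to 252 CPM. For Mki67 the interval of the difference between responses reached from -0.40 to 2.04 with all libraries and from -0.53 to 0.45 without replicate 2.

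Other genes of the same pathways, taken from 5 lists with 105 genes in all, gave the counts that follow. Of 33 further mitosis genes, 21 fell and none rose in controls (median -1.14, all genes: 33.9% lower, 26.8% higher). In bKO-labelled islets 11 fell and none rose (median -0.64, all genes: 33.6% lower, 28.8% higher). That count of falls is near the share over all genes. Without replicate 2 the counts of falls were 28 and 27 (all genes: 33.4% and 32.3% lower). Racgap1, which directs cytokinesis, fell by 1.43 and 1.33, and Cdc25b, a phosphatase that activates Cdk1, by 1.26 in each genotype. Of 30 further replication genes, 15 fell and 1 rose in controls, and 11 fell and 2 rose in bKO-labelled islets. The 11 falls are again near the share over all genes. Without replicate 2, 23 fell in bKO-labelled islets. Medians were -0.41 in each genotype with all libraries. Dut, which keeps uracil out of DNA, fell by 0.85 and 0.86, and Orc6 (origin recognition) by 0.53 in bKO-labelled islets. Orc6 also went from 15.2 ± 0.53 to 12.6 ± 0.56 CPM in controls.

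The rises in the replication list were small and insecure. The clamp loader gene Rfc3 rose by 0.26 and 0.28, and Chaf1b (chromatin assembly) by 0.31 in bKO-labelled islets. With library totals alone Rfc3 was at 0.04 and 0.06 and Chaf1b at 0.08, none called. Rfc3 lost its call in controls in 7 of the 12 fits that left out 1 library, namely without any untreated control library, treated control replicates 2 or 3, untreated bKO-labelled replicate 2 or treated bKO-labelled replicate 3 (adjusted p = 0.0547 to 0.185). In bKO-labelled islets Rfc3 lost it without untreated replicates 1 or 2 or treated replicate 3 (adjusted p = 0.0722 to 0.108). Chaf1b lost it without any bKO-labelled library except treated replicate 2 (adjusted p = 0.0515 to 0.0937).

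Pocket proteins, the other E2F factors and the DREAM complex, which represses cell cycle genes in resting cells, had 8 of 15 genes lower and 4 higher in controls (all genes: 33.9% lower, 26.8% higher) and 7 lower and 3 higher in bKO-labelled islets (all genes: 33.6% lower, 28.8% higher), with medians of -0.50 and -0.26. The higher counts are near the share over all genes. Rbl2 (p130), the pocket protein of the resting state, fell from 51.0 ± 3.2 to 18.8 ± 2.3 CPM in controls (log2 -1.44, adjusted p = 1.13e-06) and from 49.0 ± 1.2 to 19.3 ± 3.0 CPM in bKO-labelled islets (-1.34). Tfdp2, a dimer partner of E2F factors, fell by 1.47 and 1.14. Rbl1 (p107) rose by 0.64 in controls, E2f5, a repressor E2F, by 0.70 in bKO-labelled islets, and Lin37, a DREAM subunit, by 0.68 and 0.60. Rbl1 also went from 12.3 ± 0.65 to 17.5 ± 2.6 CPM in bKO-labelled islets. E2f5 went from 11.6 ± 0.59 to 15.5 ± 1.7 CPM in controls.

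The list of other G1 regulators and inhibitors had 5 of 13 genes higher and 6 lower in controls and 5 each way in bKO-labelled islets, with medians of -0.06 and -0.05. Calls in both directions were common among all genes as well, 60.6% in controls and 62.4% in bKO-labelled islets. Wee1, the kinase that holds Cdk1 inactive, rose by 1.49 and 1.26, from 12.4 ± 0.99 to 34.9 ± 1.5 CPM in controls. Myc, a growth-promoting transcription factor, rose by 0.87 and 0.88. Ccnh, the cyclin of the CDK-activating kinase, fell by 0.95 and 0.75. The inhibitor gene Cdkn2d (p19) fell by 0.75 in controls and Men1 (menin), a known brake on islet cell growth, by 0.52 in bKO-labelled islets. Cdkn2d also went from 7.59 ± 0.96 to 5.24 ± 0.45 CPM in bKO-labelled islets. Men1 went from 54.3 ± 2.8 to 39.5 ± 3.0 CPM in controls.

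Known targets of p53, the list that Cdkn1a belongs to by function, were listed with the p53 gene Trp53 itself. This list had more members higher than lower. In controls 8 of 14 were higher and 2 lower (median 0.41, all genes: 26.8% higher, 33.9% lower). In bKO-labelled islets 10 were higher and 2 lower (median 0.67, all genes: 28.8% higher, 33.6% lower). Mdm2, the ubiquitin ligase that restrains p53, rose from 70.2 ± 0.64 to 177 ± 13 CPM in controls (log2 1.33, adjusted p = 3.42e-08) and by 1.21 in bKO-labelled islets. Plk3, a stress-induced Polo kinase, rose by 2.20 in controls and Ccng1 (cyclin G1) by 1.02 in bKO-labelled islets. In bKO-labelled islets Plk3 also went from 46.5 ± 4.1 to 155 ± 44 CPM. In controls Ccng1 went from 104 ± 8.6 to 177 ± 19 CPM. Sesn1 (sestrin 1) fell by 0.69 and 0.93 and Plk2 by 0.43 and 0.33. The bKO-labelled Plk2 call was lost without untreated replicate 3 or treated replicate 1 (adjusted p = 0.0568 to 0.0862). Without replicate 2, the p53 list had 10 higher and 2 lower in controls and 12 higher and 2 lower in bKO-labelled islets. The pocket protein list then had 5 higher and 9 lower, and 4 higher and 7 lower. Over all genes 31.5% were then higher and 33.4% lower in controls, and 30.0% and 32.3% in bKO-labelled islets. No gene of the 5 lists was called between genotypes.

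Markers of other cell types moved with the cytokine comparison itself. All 8 endothelial markers (Pecam1, Cdh5 and others) were lower with cytokines in both genotypes, their sum going from 605 to 775 CPM in untreated to 132 to 199 CPM in treated controls, and from 672 to 691 to 169 to 218 CPM in bKO-labelled islets. Of 8 macrophage markers 7 were higher in both, and of 10 acinar markers 9 were lower in controls and 4 in bKO-labelled islets. Stellate or fibroblast markers had 1 of 10 higher and 1 lower in controls, and 5 higher and 1 lower in bKO-labelled islets. Beta cell markers had 6 of 9 lower in each genotype, although their sum was 144557 to 177575 CPM in treated controls against 124918 to 136722 CPM untreated, and alpha cell markers (Gcg and others) had all 5 lower. Defining markers of T cells (Cd3g) and red blood cells (Hba-a1, Alas2) were at 0 in some libraries. The part of these cells in the fall of the mitosis and replication genes was not tested.

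**Figure D4:**
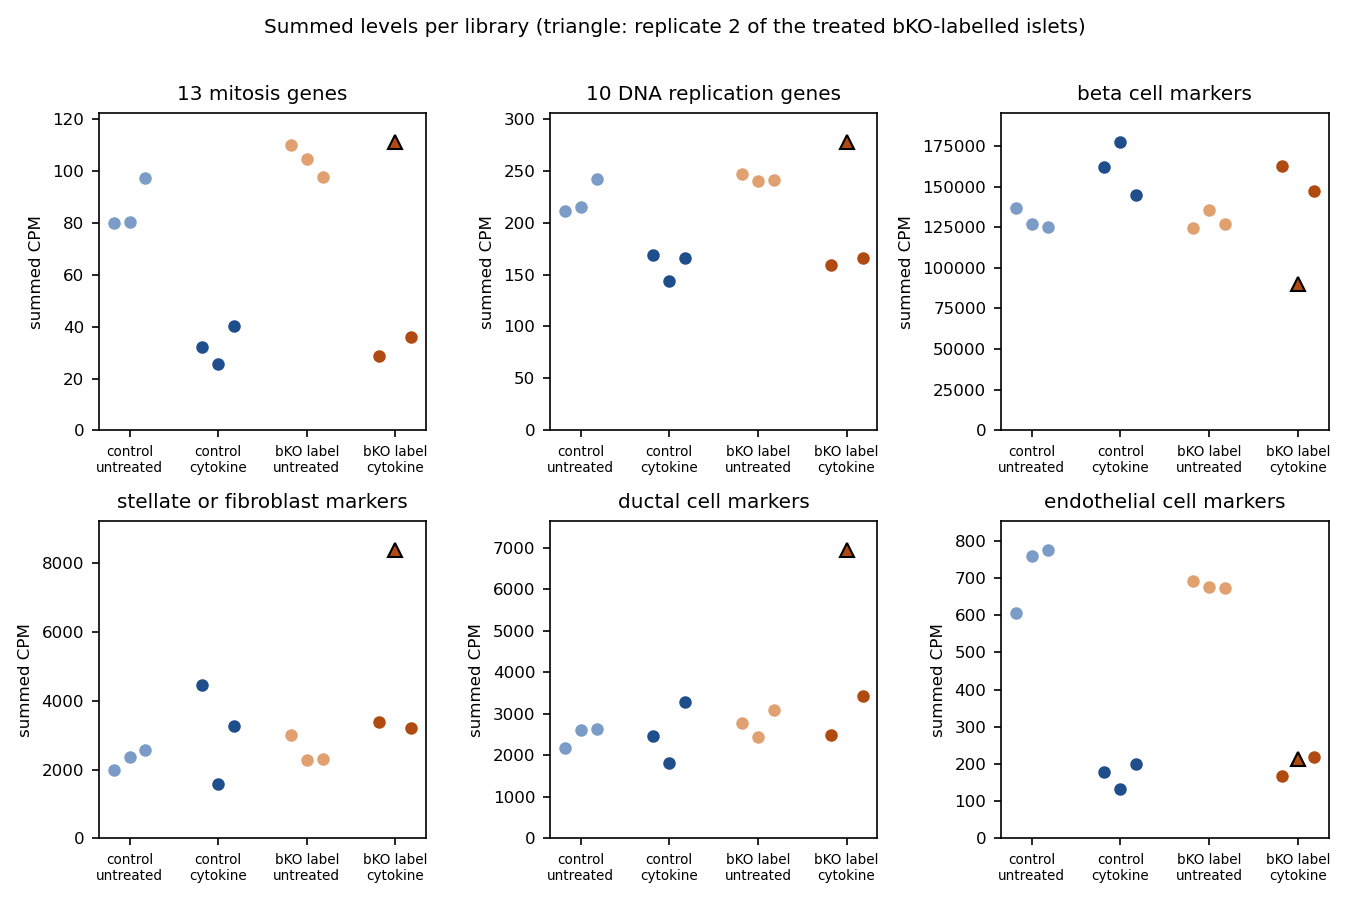
Summed CPM (vertical axes, from 0) of the 13 mitosis genes, the 10 DNA replication genes and 4 lists of cell type markers in each library by group, with treated bKO-labelled replicate 2 as a triangle. That library is the highest of the 12 for the mitosis, replication, stellate and ductal sums and the lowest for beta cell markers, while endothelial markers are low in all 6 treated libraries.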

How the data were processed

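Raw counts per gene of the 12 libraries were deposited by the authors as whole numbers. The tools named are STAR 2.5.2a, featureCounts 1.6.2, cutadapt 1.16, FastQC 0.11.7 and DESeq2 1.30.0, with build GRCm38, per the submitters' processing notes. The strand setting and annotation release were not given in the sources used here. Groups and replicate numbers come from the sample titles. From the full table, filterByExpr kept 19800 genes. TMM scaling and edgeR 4.0.16 (R 4.3.3) gave 5 comparisons in 1 fit of all 12 libraries, with a coefficient per group and Benjamini-Hochberg adjustment at 0.05 over all genes tested, after a test on simulated data. DESeq2 1.42.0, limma-voom (limma 3.58.1), other scalings and filters, fits of the compared groups, each library left out in turn and a replicate block were alternatives. Giving results without treated bKO-labelled replicate 2, and the fits without it under other scalings, were chosen after seeing the data. Overlaps come from GENCODE M21, promoter sequences from RefSeq (GRCm38.p6). All 39 members are described; of the 5 pathway lists, up to 2 genes per direction with the smallest adjusted p in each cytokine comparison are named, except 1 that is not reported here. The members and lists were chosen with earlier results of these data known. Library totals were not equalised, so low genes such as Cdkn2a carry more counting error.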

Additional observations from a re-analysis of the deposited data

How the results depend on the processing

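The count of 26 cell cycle genes lower with cytokines in control islets stayed within 1.5 times of itself under every alternative, 20 to 31 over the fits that left out 1 library, and the 4 higher ones at 3 to 5. In bKO-labelled islets the 13 lower genes became 21 with library totals alone, 21 with limma-voom, 7 with only the groups compared, and 7 to 30 over the fits without 1 library (8 without treated replicate 1, 30 without replicate 2, 7 without replicate 3). Without treated replicate 2 it was 30 with DESeq2's size factors and 33 with library totals alone. The 5 higher genes became 2 with library totals alone, with or without that library, and were 4 to 5 over the fits without 1 library. Genotype with cytokines had 0 to 1 higher and 0 to 0 lower, and the remaining counts, genotype without cytokines and the difference between responses, stayed at 0 in each of these fits. Library totals alone moved the median of all genes from -0.10 to -0.33 in controls and from -0.06 to -0.29 in bKO-labelled islets. In bKO-labelled islets Cdk4 then turned from 0.00 to -0.23. Without treated replicate 2 and with library totals alone, Cdk4 was at -0.24, Tyms at -0.52, Pcna at -0.10, E2f3 at -0.0030 and Rfc3 at -0.019. The cause was not tested beyond the scaling itself.

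Replicate numbers did not pair the libraries, with correlations of same-numbered deviations from -0.10 to 0.096. With the replicate number as a block, 20 genes were lower in bKO-labelled islets. Low counts limit the precision of genes such as Cdkn2a, Bub1 and Aurkb.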
